A study of Mus musculus with 8 samples.

Results

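Sucrase-isomaltase and 8 peptidases of the intestinal brush border were followed in mouse colon epithelial cells. They were Sis, Naaladl1, Dpp4, Ace, Mme, Mep1a, Anpep, Enpep and Xpnpep2, 9 of the 19505 genes that the array names. Each was found as the array feature (a probe set that reads 1 gene) whose only gene symbol in the platform annotation was that gene, and each had 1 feature. The study compared wild-type (WT) C57BL/6J mice with SMS2 knockout (KO) mice of the same strain background. SMS2, encoded by Sgms2, makes sphingomyelin from ceramide. Mice of each genotype were untreated or drank 3.5% dextran sulfate sodium (DSS), a polymer that injures the colon lining, for 2 days. Each of the 4 groups had 2 arrays, called biological replicates in the labels, and all mice were fed freely. No age, sex or construction of the knockout is stated in the labels, nor the number of mice behind each array.

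The brush border is the carpet of microvilli on the lumenal face of enterocytes. Its membrane carries hydrolases that finish digestion: a disaccharidase that splits starch and sucrose products, exopeptidases that trim peptides from their ends, and endopeptidases that cleave inside them. Peptide and amino acid transporters in the same membrane take up what they release. Most of these enzymes are known best from the small intestine, where they serve as markers of differentiated enterocytes, and several also occur on kidney tubules, endothelium, stromal cells or leukocytes.

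Promoter windows were available for 8 of the 9 genes, 11 windows in all, each running from 250 bases before a transcription start to 50 after it (RefSeq, GRCm38.p6). They were searched on both strands for letters bound by regulators of enterocyte genes: GTTAAT for HNF1 along with the full HNF1 palindrome that contains it, CAAAGTCCA for HNF4, and GATAAG for the GATA family. For the caudal factors CDX1 and CDX2 the letters were TTTATG in a first search, and in another search they were TTTATTG. Only the windows of Sis, Mep1a and Enpep held a match. They are shown with that of Xpnpep2, whose signal differed most clearly between the genotypes under DSS and whose window held none. Capitals mark the matched letters.

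Sis: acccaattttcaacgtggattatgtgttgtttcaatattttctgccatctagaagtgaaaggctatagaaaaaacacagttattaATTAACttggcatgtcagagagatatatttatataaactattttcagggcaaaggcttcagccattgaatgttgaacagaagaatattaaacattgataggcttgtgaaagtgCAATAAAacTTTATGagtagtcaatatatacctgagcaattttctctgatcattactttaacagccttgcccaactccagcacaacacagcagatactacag
Mep1a: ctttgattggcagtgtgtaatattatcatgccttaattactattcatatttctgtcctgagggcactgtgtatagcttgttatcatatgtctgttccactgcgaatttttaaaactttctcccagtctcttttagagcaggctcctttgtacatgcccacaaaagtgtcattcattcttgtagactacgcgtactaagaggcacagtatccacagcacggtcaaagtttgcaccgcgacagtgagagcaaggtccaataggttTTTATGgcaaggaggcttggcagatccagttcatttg
Enpep: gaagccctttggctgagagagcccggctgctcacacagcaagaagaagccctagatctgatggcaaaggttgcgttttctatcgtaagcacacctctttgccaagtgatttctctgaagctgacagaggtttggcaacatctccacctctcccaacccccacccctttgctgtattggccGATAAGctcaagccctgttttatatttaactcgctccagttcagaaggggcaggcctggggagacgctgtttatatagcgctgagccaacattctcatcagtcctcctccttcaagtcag
Xpnpep2: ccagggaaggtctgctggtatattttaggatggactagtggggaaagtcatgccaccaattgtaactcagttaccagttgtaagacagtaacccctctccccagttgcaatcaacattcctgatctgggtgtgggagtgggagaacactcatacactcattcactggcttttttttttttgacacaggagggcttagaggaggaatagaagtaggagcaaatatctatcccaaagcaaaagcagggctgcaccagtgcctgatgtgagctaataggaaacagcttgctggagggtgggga

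The Sis window (chr3:72967814-72968113, minus strand) held 3 matches. The HNF1 letters lay 165 bases before the start and the TTTATTG letters 52 bases before it, both read on the opposite strand, and TTTATG lay 43 bases before it on the gene's own strand. These 3 matches did not overlap. In the Mep1a window (chr17:43502724-43503023, minus strand) TTTATG began at base 264, after the start. In the Enpep window (chr3:129332700-129332999, minus strand) GATAAG lay 70 bases before the start. The Xpnpep2 window (chrX:48108475-48108774, plus strand) and those of Mme, Ace, Anpep and Dpp4 had none of the letters searched. Of 32851 mouse windows of this length, 7.10% held GTTAAT, 11.9% TTTATG, 4.60% TTTATTG, 7.44% GATAAG, 0.475% CAAAGTCCA and 0.00913% the palindrome. A match describes the letters and is no measured binding site.

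Signals are log2 values as deposited, so a difference of 1 is a doubling, and they are compared between arrays for the same gene, not between genes. Background was the 75th percentile of the negative-control features, 6.00 to 6.24 by array. At their 95th percentile, 8.14 to 8.56, only 3 to 5 of the 9 genes were above background on both arrays of a group. The targeted gene went with its labels: Sgms2 was lower in knockout than in WT cells, with differences of -3.46 ± 0.29 without DSS and -4.18 ± 0.29 with it (log2, ± SE, n = 2 arrays a group; limma adjusted p 0.00137 and 3.08e-05). The 7 epithelial markers, Epcam and Krt8 among them, were above background on all 8 arrays, and their summed signal lay between 19.81 and 20.07 on every array. Marker lists of other cells moved with the groups. Fibroblast markers summed to 12.63 to 13.18 in untreated WT cells, 14.77 to 15.15 in untreated knockout cells, and 16.62 to 17.47 and 16.55 to 17.02 in WT and knockout cells with DSS. Y-linked transcripts summed to 5.55 to 5.72 on all untreated arrays and 10.95 to 12.10 on all DSS arrays, so sex and DSS cannot be told apart. Among the DSS arrays, replicate 1 of WT had the pancreatic amylase Amy2a5 at 15.17 against 5.55 in its partner, and replicate 1 of the knockout had Amy2a5 at 9.61 against 4.59 and smooth muscle markers at 18.60 against 16.69. Results for the 9 genes are given without both where that changed a call. In whole-cell RNA, fewer cells of a type and less RNA per cell cannot be told apart, and the p-values measure only the spread between these few arrays.

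DSS came with less Sis and Naaladl1 and more Ace in both genotypes, whereas Mme passed the test in knockout cells only and Xpnpep2 in WT cells only. For Xpnpep2 the difference between the DSS changes of the genotypes was not called (limma adjusted p = 0.0564). In WT cells 4 of the 9 genes passed the test of DSS against untreated (adjusted p under 0.05): Xpnpep2 and Ace rose and Sis and Naaladl1 fell, beside 4.04% of the 13003 genes tested. In knockout cells 4 passed, beside 0.931% of genes: Ace rose and Sis, Naaladl1 and Mme fell. When only the 4 knockout arrays entered the fit, all 4 calls were lost (adjusted p 0.0636 for Sis, 0.0914 for Naaladl1, 0.092 for Mme and 0.14 for Ace) and 0.108% of genes passed. Between genotypes, 1 gene passed without DSS (Mme, higher in the knockout, beside 0.392% of genes) and 1 with DSS (Xpnpep2, lower in the knockout, beside 0.354%). The DSS changes of the genotypes differed for Mme alone of the 9, beside 0.0769% of genes. The members were chosen with earlier results of these data known, so these counts are a description of them. The groups of arrays did not overlap for 7 members with DSS against untreated in WT and 6 in the knockout, and for 5 members with knockout against WT when untreated and 3 under DSS, beside 44.4%, 38.7%, 38.2% and 34.9% of genes. The median difference of the 9 was 0.02 in WT and -0.25 in knockout cells for DSS, beside -0.05 and -0.04 over all genes, because rises and falls lay side by side. The 2 DSS comparisons share no array. Each shares 1 group of arrays with each genotype comparison, and all its arrays with the difference of the DSS changes.

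**Figure D1:**
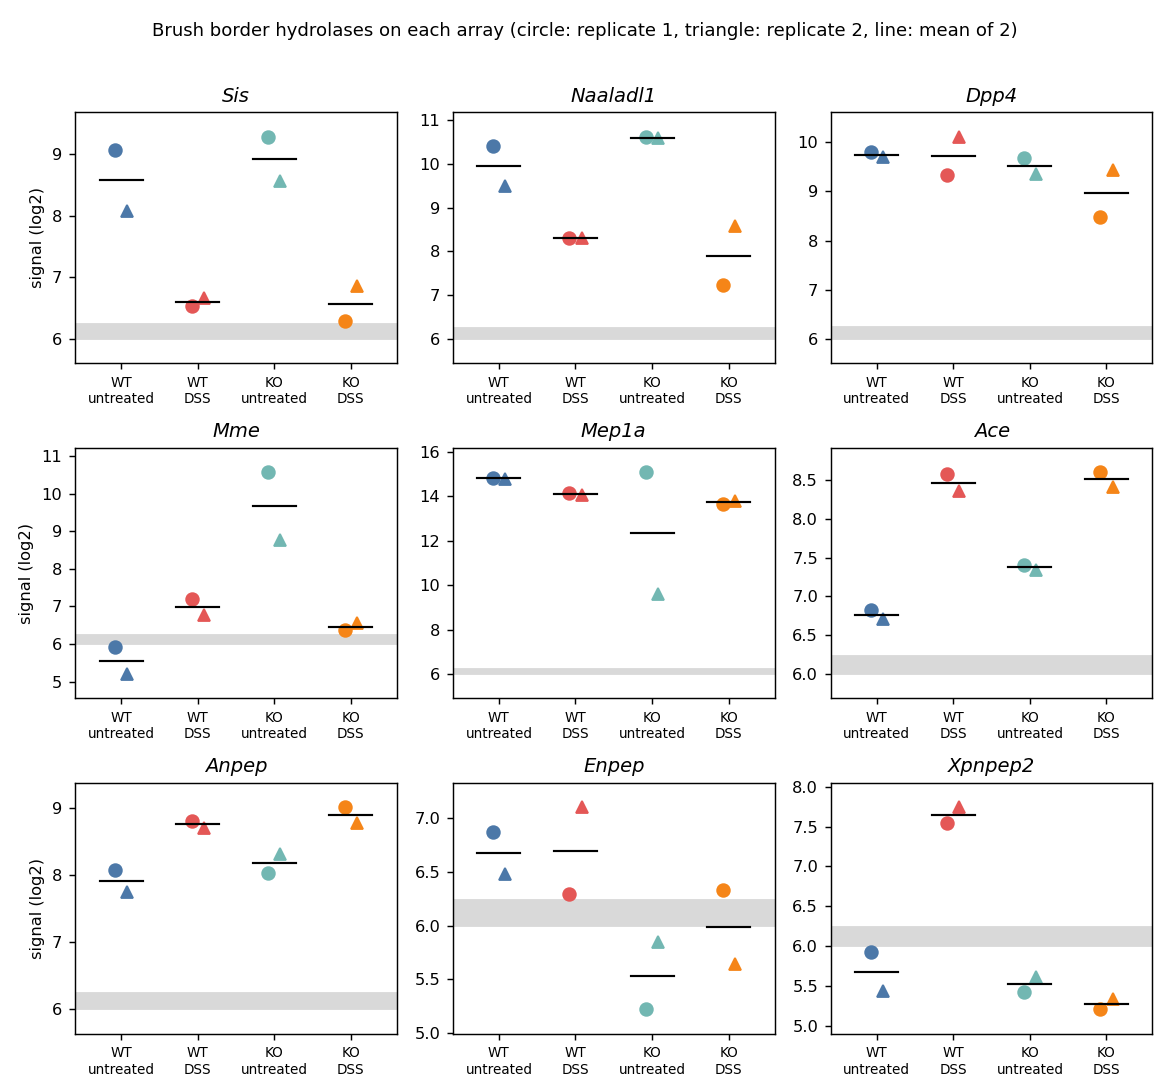
Signal of each gene on each array (log2, vertical axis with its own range in every panel) for WT and knockout (KO) cells, untreated or with DSS; circles are replicate 1, triangles replicate 2, lines the mean of the 2, and the grey band is the range of the background, 6.00 to 6.24. Sis and Naaladl1 were lower and Ace higher on every DSS array than on any untreated array, Mme was high on both untreated knockout arrays, Xpnpep2 was above background only in WT with DSS, and Mep1a was at 9.60 on 1 untreated knockout array.

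Sis is the brush border disaccharidase, which splits sucrose and the maltose and isomaltose left from starch. Its signal was 9.07 and 8.07 on the untreated WT arrays, 6.53 and 6.66 in WT with DSS, 9.28 and 8.56 in the untreated knockout, and 6.29 and 6.85 in the knockout with DSS. Every untreated array lay above every DSS array, and the lowest DSS values were close to background. Sis fell by 1.97 ± 0.36 in WT (adjusted p = 0.00865), 3.93-fold, and by 2.34 ± 0.36 in the knockout (adjusted p = 0.0137), 5.07-fold. Against the 95th percentile of the negative controls, above all DSS values, the bounds were only 1.17-fold and 1.49-fold. The 2 changes differed by -0.37 (95% interval -1.48 to 0.74). Knockout minus WT was 0.34 (-0.44 to 1.13) without DSS and -0.02 (-0.81 to 0.76) with it; neither passed the test. Averaged over the genotypes, Sis differed by -2.16 ± 0.25 with DSS (adjusted p = 0.000398), which held in every alternative tried. Within WT the call was lost without untreated replicate 1 (-1.47, adjusted p = 0.11) or without either DSS array (adjusted p 0.0569 and 0.0515), and within the knockout without untreated replicate 1 or DSS replicate 1 (0.109 and 0.0842).

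Naaladl1 encodes a brush border aminopeptidase of the family of the glutamate carboxypeptidases, and releases amino acids from short peptides. Its signal was 10.41 and 9.50 in untreated WT cells, 8.30 and 8.31 in WT with DSS, 10.62 and 10.58 in the untreated knockout, and 7.23 and 8.58 in the knockout with DSS. As for Sis, no DSS array reached the lowest untreated one, and the knockout DSS arrays lay 1.36 apart, a gap that 1.90% of genes matched or passed in that group. Naaladl1 fell by 1.65 ± 0.40 in WT (adjusted p = 0.0462) and by 2.69 ± 0.40 in the knockout (adjusted p = 0.013), and the changes differed by -1.04 (-2.30 to 0.21; adjusted p = 0.952). Averaged over genotypes the difference was -2.17 ± 0.29 (adjusted p = 0.000876), which held in every alternative. Knockout minus WT was 0.65 (-0.24 to 1.53) without DSS and -0.40 (-1.29 to 0.49) with it, and neither passed. The call in WT was lost when any 1 of the 4 WT arrays or either untreated knockout array was left out (adjusted p 0.0517 to 0.375), with no filter on low means (0.0545) and with quantile normalization (0.0544). In the knockout it was lost without untreated replicate 1 (0.0665) or 2 (0.0895).

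Over the 8 arrays, each gene set to its own mean, the genes nearest to Sis were Cyp4f14, Naaladl1 and Lgr5, with root mean square differences of 0.28, 0.31 and 0.35 (the median over all genes was 1.14). For Naaladl1 they were Sis (0.31), Cyp4f14 (0.35) and Lgr5 (0.49; median 1.19). Sis and Naaladl1 were also the closest of the 36 pairs among the 9 genes, which ran up to 2.58 for Mme and Mep1a. Cyp4f14 is a cytochrome P450 that hydroxylates fatty acid derivatives, and Lgr5 is a receptor of intestinal stem cells. Markers of the ileum and proximal absorptive cells moved in the same arrays: 4 of 6 tested fell with DSS in WT, among them Slc10a2, the ileal bile acid transporter (-2.02 ± 0.24), and Fabp6, the ileal bile acid binding protein (-3.24 ± 0.39), and 2 of 6 fell in the knockout. Their summed signal was 15.83 to 15.86 in untreated WT, 14.28 to 14.86 in WT with DSS, 15.38 to 15.39 in the untreated knockout and 13.98 to 14.63 in the knockout with DSS. The sum rests mostly on Fabp2, the brightest of the list on every array (15.63 and 15.55 in untreated WT). The other tested markers did not follow. Rbp2 differed by 0.79 ± 0.25 with DSS in WT and -0.36 ± 0.25 in the knockout, and Apoa4 by 0 ± 0.34 and 0.18 ± 0.34, none of them called. In this list Apoa1 and Fabp1 were below background on every array. Its part in the Sis and Naaladl1 results was not tested.

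Ace, angiotensin-converting enzyme, removes dipeptides from the ends of peptides and sits on endothelium as well as on brush borders. Its signal was 6.82 and 6.71 in untreated WT cells, 8.57 and 8.36 in WT with DSS, 7.41 and 7.34 in the untreated knockout, and 8.60 and 8.41 in the knockout with DSS. The DSS arrays of both genotypes lay together above all untreated ones, and the untreated knockout arrays lay above the untreated WT ones. Ace rose by 1.70 ± 0.22 in WT (3.25-fold, adjusted p = 0.00116) and by 1.14 ± 0.22 in the knockout (2.20-fold, adjusted p = 0.04), with a difference between the changes of -0.56 (-1.25 to 0.13). Against the 95th percentile of the negative controls the bounds on the rises were only 1.12-fold and 1.09-fold. Knockout minus WT was 0.60 (0.11 to 1.09; adjusted p = 0.518) without DSS and 0.04 (-0.45 to 0.53) with it. The rise in WT held in every alternative. That in the knockout was lost without any 1 of either genotype's untreated arrays or without knockout DSS replicate 1 (adjusted p 0.0803 to 0.343), without replicate 1 of both DSS groups (0.0884), and with array medians set equal (1.08, 0.0537).

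The genes nearest to Ace were Gsn, which encodes the actin-severing gelsolin, Septin4 and Pmepa1, at root mean square differences of 0.10, 0.12 and 0.19 (median over all genes 0.81). Endothelial markers followed the same groups: 5 of 6, 3 of 6 and 1 of 6 were higher with DSS in WT, with DSS in the knockout, and in the untreated knockout over untreated WT. Their summed signal was 9.23 to 9.40 in untreated WT, 11.54 to 11.71 in WT with DSS, 10.42 to 10.72 in the untreated knockout and 11.74 to 12.26 in the knockout with DSS. Of the 7 fibroblast markers, 6, 4 and 2 were higher in the same 3 comparisons, Dcn (4.65 ± 0.36 in WT) and Sparc (3.31 ± 0.26 in WT) among them. The part of these cells in the Ace result was not tested.

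Dpp4, dipeptidyl peptidase 4, takes dipeptides with proline or alanine from the amino end and inactivates the incretin hormones. It read 9.79 and 9.70 in untreated WT cells, 9.33 and 10.11 in WT with DSS, 9.67 and 9.36 in the untreated knockout, and 8.48 and 9.44 in the knockout with DSS. The DSS arrays spread around the untreated ones in WT. None of the comparisons passed the test: DSS minus untreated was -0.02 (-0.78 to 0.73) in WT and -0.55 (-1.31 to 0.20) in the knockout. Knockout minus WT was -0.23 (-0.99 to 0.52) without DSS and -0.76 (-1.52 to -0.01; adjusted p = 0.489) with it.

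**Figure D2:**
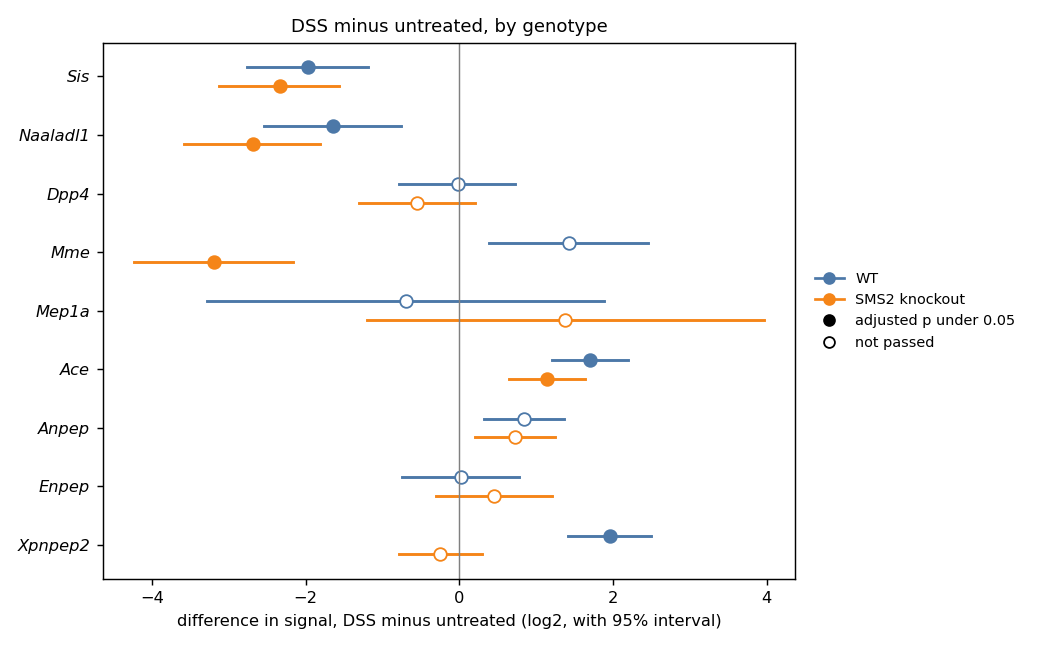
DSS minus untreated for each gene in WT and in knockout cells (log2, horizontal axis), with 95% intervals from the limma fit; filled points passed the test and open points did not. Sis and Naaladl1 lay to the left and Ace to the right of 0 in both genotypes, while Mme, Xpnpep2 and, with wide intervals, Mep1a had their 2 points on opposite sides.

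Mme, neprilysin, is a membrane endopeptidase that degrades small signalling peptides. It read 5.91 and 5.20 in untreated WT cells, both under background, and 10.57 and 8.76 in the untreated knockout. With DSS it read 7.21 and 6.76 in WT and 6.38 and 6.55 in the knockout. Thus the untreated knockout arrays stood above all others, 1.81 apart, and the remaining arrays lay near or just above background. Without DSS, Mme was at least 11.5-fold higher in knockout than in WT cells, a bound set by the background (fitted difference 4.10 ± 0.47, adjusted p = 0.00653); against the 95th percentile the bound was 2.57-fold. In the knockout it fell by 3.19 ± 0.47 with DSS (9.15-fold, adjusted p = 0.0129), at least 2.49-fold against the 95th percentile. This call shares the untreated knockout arrays with the former. In WT, DSS minus untreated was 1.43 (0.39 to 2.46) and was not called (adjusted p = 0.144). By the background bound the means lay at least 1.80-fold apart, but the interval reaches lower. Against the 95th percentile no bound can be given. With only the WT arrays in the fit the same difference had an adjusted p of 0.0255. Knockout minus WT with DSS was -0.52 (-1.55 to 0.52).

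The DSS change of Mme differed between the genotypes by -4.62 ± 0.67 (adjusted p = 0.0324). Over the alternatives this difference kept its sign, but its call was lost without either untreated WT array (adjusted p 0.0874 and 0.241), without WT DSS replicate 1 (0.146), without either knockout DSS array (0.0694 and 0.064), and without replicate 1 of both DSS groups (0.062). The genotype call without DSS was lost without untreated WT replicate 2 (3.75, adjusted p = 0.0996), and the DSS call in the knockout without knockout DSS replicate 1 (-3.11, adjusted p = 0.0685). The genes nearest to Mme were Mt2, a metallothionein that binds zinc and copper, Cdkl1 and Homer2, but at root mean square differences of 1.02, 1.07 and 1.13 (median over all genes 1.63). In the untreated knockout, smooth muscle markers summed to 17.44 to 17.74, against 15.23 to 16.23 in untreated WT, 16.18 to 16.70 in WT with DSS and 16.69 to 18.60 in the knockout with DSS. Of the 6, 0 passed by limma between the genotypes without DSS, where 6 of 6 had an unadjusted p under 0.05, or with DSS in the knockout, where 0 of 6 did. Of 7 fibroblast markers, 2, Sparc (2.08 ± 0.26) and Dcn (2.17 ± 0.36), were higher in the untreated knockout than in untreated WT, and were higher still with DSS, when Mme was low. The part of these cells in the Mme result was not tested.

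Mep1a encodes the alpha subunit of meprin, a secreted and membrane-bound zinc endopeptidase of the colon and small intestine. It read 14.83 and 14.77 in untreated WT, 14.14 and 14.07 in DSS-treated WT, and 13.64 and 13.79 in the knockout with DSS. In the untreated knockout it read 15.08 and 9.60, a gap of 5.48. Only 2 of 13003 genes (0.0154%) had a gap at least as wide between these arrays, the other being Ly6e at 17.17 and 11.36. Mep1b, the beta subunit, read 12.69 and 12.97 on the same arrays. None of the Mep1a comparisons passed the test, and 4 of those that use the untreated knockout changed sign with replicate 2 left out. DSS minus untreated in the knockout was 1.38 ± 1.18 with both, -1.37 ± 0.30 (adjusted p = 0.149) without replicate 2, and 4.12 ± 0.30 (adjusted p = 0.000155) without replicate 1, which leaves the low array alone. Knockout minus WT without DSS was likewise -2.46, 0.28 and -5.21. DSS averaged over genotypes gave 0.34 with both, -1.03 ± 0.20 (adjusted p = 0.0135) without replicate 2 and 1.71 ± 0.20 (adjusted p = 0.000479) without replicate 1. Knockout minus WT averaged over treatments was -1.43 with both, -0.06 without replicate 2 and -2.80 (adjusted p = 8.89e-05) without replicate 1. In WT, where all 4 arrays were close to their partners, it differed by -0.70 (-3.28 to 1.88; adjusted p = 0.853); the fit takes 1 spread for all groups, and without untreated knockout replicate 2 the SE was 0.25 and the adjusted p 0.205.

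Among the aminopeptidases, Anpep (aminopeptidase N, which removes neutral residues) was higher with DSS when averaged over the genotypes. It read 8.08 and 7.75 in untreated WT, 8.80 and 8.71 in DSS-treated WT, 8.03 and 8.32 in the untreated knockout, and 9.01 and 8.78 in the knockout with DSS. All DSS arrays lay above all untreated ones. The difference was 0.84 ± 0.24 in WT (adjusted p = 0.0815) and 0.72 ± 0.24 in the knockout (adjusted p = 0.29), neither past the threshold. Averaged over genotypes Anpep rose by 0.78 ± 0.17 (adjusted p = 0.0189), 1 of 5 members that passed in this average, with Ace, Xpnpep2, Naaladl1 and Sis, beside 5.52% of genes. The Anpep call was lost without untreated WT replicate 2 (adjusted p = 0.0943), without either untreated knockout array (0.0983 and 0.0503), or without replicate 1 of both DSS groups (0.0524), and that of Xpnpep2 (0.85 ± 0.17, adjusted p = 0.0141) without untreated WT replicate 2 (0.0742) or untreated knockout replicate 1 (0.07). Knockout minus WT was 0.26 (-0.26 to 0.78) without DSS and 0.14 (-0.38 to 0.66) with it.

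Enpep, aminopeptidase A, removes acidic residues and converts angiotensin peptides. It read 6.87 and 6.48 in untreated WT, 6.29 and 7.10 in DSS-treated WT, 5.22 and 5.85 in the untreated knockout, and 6.33 and 5.64 in the knockout with DSS. The untreated knockout arrays and 1 of the knockout DSS arrays were below background, while all 4 WT arrays were above it. By the background bound the untreated knockout mean lay at least 1.43-fold below that of WT, but the interval of the difference reaches lower. Against the 95th percentile no bound can be given. Knockout minus WT was -1.14 ± 0.35 without DSS (-1.90 to -0.38, adjusted p = 0.307) and -0.72 ± 0.35 with DSS (adjusted p = 0.507), neither called. Averaged over treatments it was -0.93 ± 0.25 (adjusted p = 0.13), and it passed without replicate 1 of both DSS groups (-1.30, adjusted p = 0.0207). DSS minus untreated was 0.02 (-0.74 to 0.78) in WT and 0.45 (-0.31 to 1.21) in the knockout. Enpep lies on the chromosome of Sgms2, with 17 protein-coding genes between them, the fewest of the 3 members on that chromosome (592 for Sis and 635 for Mme).

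Xpnpep2, a membrane aminopeptidase P that removes residues preceding proline and degrades bradykinin, was above the 75th percentile of the negative controls in 1 group and above the 95th in none, where no fold bound can be given. It read 7.55 and 7.74 on the WT DSS arrays, against 5.93 and 5.44 on those of untreated WT, 5.43 and 5.62 in the untreated knockout, and 5.21 and 5.34 in the knockout with DSS. The 6 other arrays were all below background. In WT it rose with DSS at least 2.84-fold (fitted difference 1.96 ± 0.25, adjusted p = 0.000898), and with DSS it was at least 2.85-fold lower in the knockout than in WT (-2.37 ± 0.25, adjusted p = 0.000871). These calls share the WT DSS arrays. Both held in every alternative that tested Xpnpep2; a stricter filter on low means left it out. The difference between the DSS changes, -2.21 ± 0.35, missed the threshold (adjusted p = 0.0564).

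Averaged over treatments, Mme (1.79 ± 0.33, adjusted p = 0.0354) was higher and Xpnpep2 (-1.26 ± 0.17, adjusted p = 0.00817) lower in the knockout, beside 0.677% of genes called. Each average rests on 1 treatment. Knockout minus WT was 4.10 without DSS and -0.52 with it for Mme, and -0.16 and -2.37 for Xpnpep2. The Mme call was lost without any 1 of the 4 WT arrays or knockout DSS replicate 1 (adjusted p 0.0782 to 0.128), and that of Xpnpep2 without untreated WT replicate 1 (-1.14, adjusted p = 0.0537). The genes nearest to Xpnpep2 were Dusp5, a phosphatase of the MAP kinase ERK, Hsd17b13, a lipid droplet enzyme, and Mid1, a ubiquitin ligase, at root mean square differences of 0.17, 0.34 and 0.36 (median over all genes 0.99). Of 6 posterior homeobox genes, which mark the distal colon, 2 were called in the same arrays. Hoxd11 (2.29 ± 0.37) and Hoxd13 (2.96 ± 0.56) were higher with DSS in WT and lower in the knockout than in WT with DSS (-2.21 ± 0.37 and -3.19 ± 0.56). The others were not called: Hoxb13, Hoxa13, Hoxd10 and Hoxd12 differed by 1.16, 0.71, 0.66 and 0.05 with DSS in WT. Hoxd10 was below background on every array. The summed signal of the 6 was 11.04 to 11.49 in untreated WT, 13.13 to 13.16 in WT with DSS, 11.02 to 11.49 in the untreated knockout, and 10.72 and 12.80 on the knockout DSS arrays. On replicate 2 of these Hoxd11 read 7.95 and Hoxd13 10.17, below both WT DSS arrays, and Hoxb13 12.39, above them. Hoxa13 read 7.80 there, between the WT DSS arrays (7.87 and 7.65). The part of colon position in the Xpnpep2 result was not tested.

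**Figure D3:**
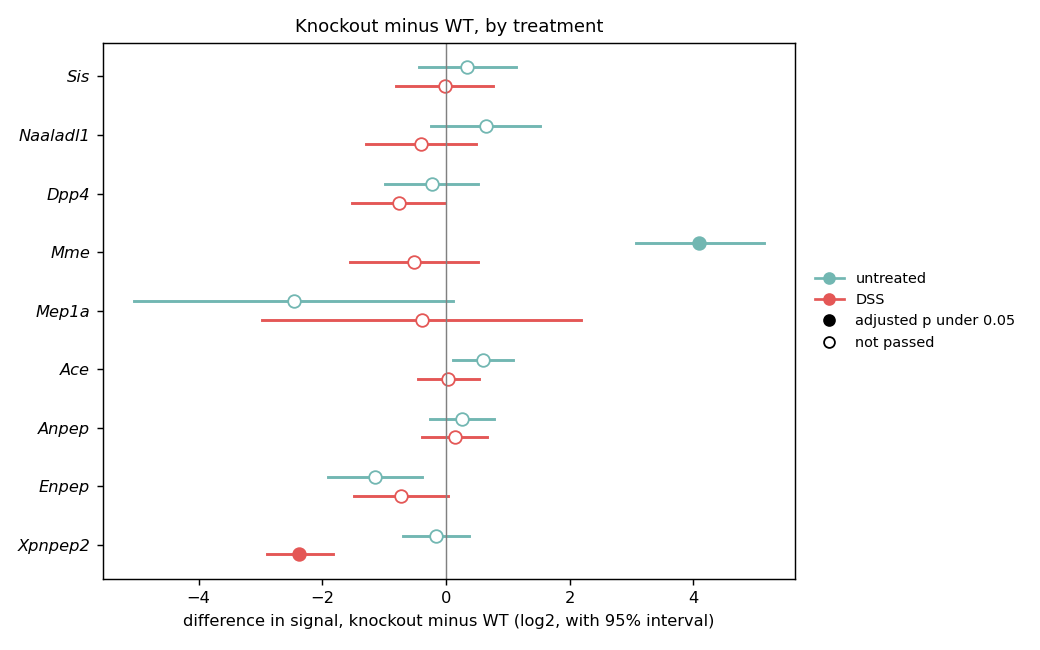
Knockout minus WT for each gene without and with DSS (log2, horizontal axis), with 95% intervals from the limma fit; filled points passed the test. Mme without DSS, at 4.10, and Xpnpep2 with DSS, at -2.37, are the filled points, and the wide Mep1a intervals go with its array at 9.60.

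Other brush border genes gave the surroundings of these enzymes. Of 20 other digestive hydrolases listed, 17 had a feature and 9 were tested, while 8, among them lactase (Lct), trehalase (Treh) and enteropeptidase (Tmprss15), were below background on every array. With DSS in WT, 1 of the 9 rose and 1 fell: Enpp3, a nucleotide pyrophosphatase (1.67 ± 0.34, adjusted p = 0.0186), and Dpep1, a dipeptidase of the brush border (-1.55 ± 0.24, adjusted p = 0.00323). Dpep1 read 15.42 and 15.33 in untreated WT, 13.97 and 13.67 in DSS-treated WT, 15.14 and 15.10 in the untreated knockout, and 14.26 and 13.88 in the knockout with DSS, below every untreated array. In the knockout 0 passed by limma (4 at an unadjusted p under 0.05, where the share of all genes was not counted). Averaged over genotypes, Enpp3 rose and Dpep1 (-1.30), the pantetheinase Vnn1 (-1.16) and Mep1b (-0.81) fell. The median DSS difference of the 9 was -0.46 in WT and -0.18 in the knockout. Between genotypes, averaged over treatments, the neutral ceramidase Asah2 was lower in the knockout (-1.10 ± 0.18, adjusted p = 0.0171). Asah2, which removes ceramide's fatty acid, read 9.08, 8.67, 8.80 and 9.07 on the WT arrays and 7.89, 7.61, 7.75 and 7.99 on the knockout arrays, with no overlap; the call was lost without either untreated WT array, WT DSS replicate 2 or untreated knockout replicate 2 (adjusted p 0.0531 to 0.112).

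Of 14 peptide, amino acid and sugar transporters tested, 1 rose and 2 fell with DSS in WT. Slc15a1, the di- and tripeptide transporter that takes up what these peptidases release, rose by 1.84 ± 0.30 (adjusted p = 0.00508). It read 11.33 and 11.11 on the untreated WT arrays and 13.23 and 12.90 on those with DSS, but 12.98 and 12.04 in the untreated knockout and 11.77 and 11.87 in the knockout with DSS. Slc3a1 (-1.61 ± 0.24, adjusted p = 0.00256) and its partner Slc7a9 (-1.18 ± 0.29, adjusted p = 0.0474), which together carry cystine and basic amino acids, fell. Slc7a9 was below background on both WT DSS arrays (5.64 and 5.82), so the size of its fall is uncertain. In the knockout Slc3a1 alone of the 14 passed (-1.16 ± 0.24, adjusted p = 0.0476), and this call was lost without any 1 of the untreated or knockout DSS arrays (0.0821 to 0.32), with no filter (0.0505), with quantile normalization (0.095) and with only the knockout arrays (0.134). Of 16 genes of the microvillus scaffold, 0 passed by limma in either genotype (3 in WT and 9 in the knockout at an unadjusted p under 0.05), with medians of -0.36 and -0.61. Averaged over genotypes 3 of 16 fell, the actin bundler Espn (-0.72), Eps8l2 (-0.79) and the protocadherin Cdhr2 (-0.66). Of 10 transcription factors of enterocyte genes, 0 passed by limma in any of the 7 comparisons (at most 4 in a comparison at an unadjusted p under 0.05). Cdx2, named after its values were seen because its letters were searched in the promoters, read 15.21 and 15.24 in untreated WT, 14.41 and 13.78 in DSS-treated WT, 14.64 and 14.99 in the untreated knockout, and 14.85 and 13.82 in the knockout with DSS. Its DSS difference was -1.13 ± 0.34 in WT (adjusted p = 0.104) and -0.48 ± 0.34 in the knockout (adjusted p = 0.757). Cdx1 and Hnf4a, whose letters were searched as well, did not all move this way. Cdx1 differed by -0.37 ± 0.26 with DSS in WT and by 0.51 ± 0.26 in the knockout. Hnf4a differed by -0.31 ± 0.24 and -0.59 ± 0.24. Over the alternatives, single arrays left out included, the calls for DSS in WT numbered 1 to 3 of the hydrolases and 1 to 5 of the transporters, and those for the scaffold averaged over genotypes 0 to 5. The calls for DSS in WT were lost without untreated replicate 1 or DSS replicate 2 for Enpp3 (adjusted p 0.202 and 0.14), without untreated replicate 2 for Slc15a1 (0.0578), and without any 1 WT or untreated knockout array for Slc7a9 (0.0709 to 0.375). In the average, Mep1b, Vnn1, Espn, Eps8l2 and Cdhr2 lost their calls under 3 to 7 of the 8 omissions of a single array. Eps8l2 (-0.69) and Cdhr2 (-0.65) also lost theirs without replicate 1 of both DSS groups.

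**Figure D4:**
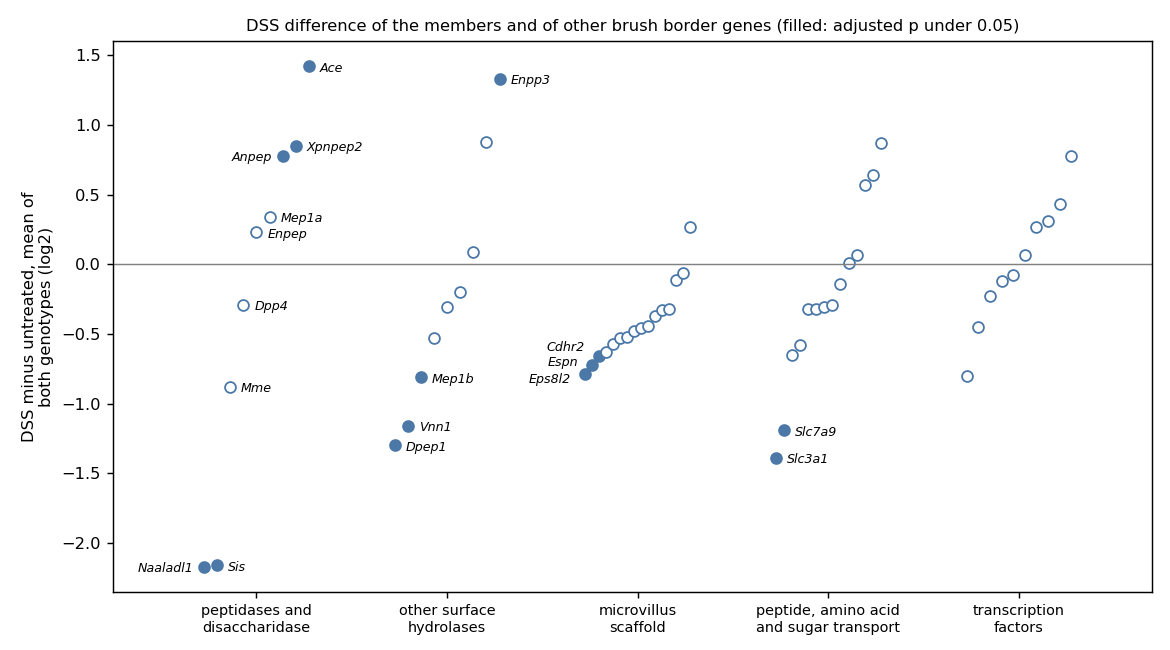
DSS minus untreated averaged over the genotypes (log2, vertical axis) for the 9 enzymes and for each tested gene of 4 lists of related genes, ordered by value within a list; filled points passed the test and the named ones are those called, with all 9 enzymes named. Sis and Naaladl1, at -2.16 and -2.17, lay below the other genes shown, and Ace, at 1.42, and Enpp3, at 1.33, at the top.

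**Figure D5:**
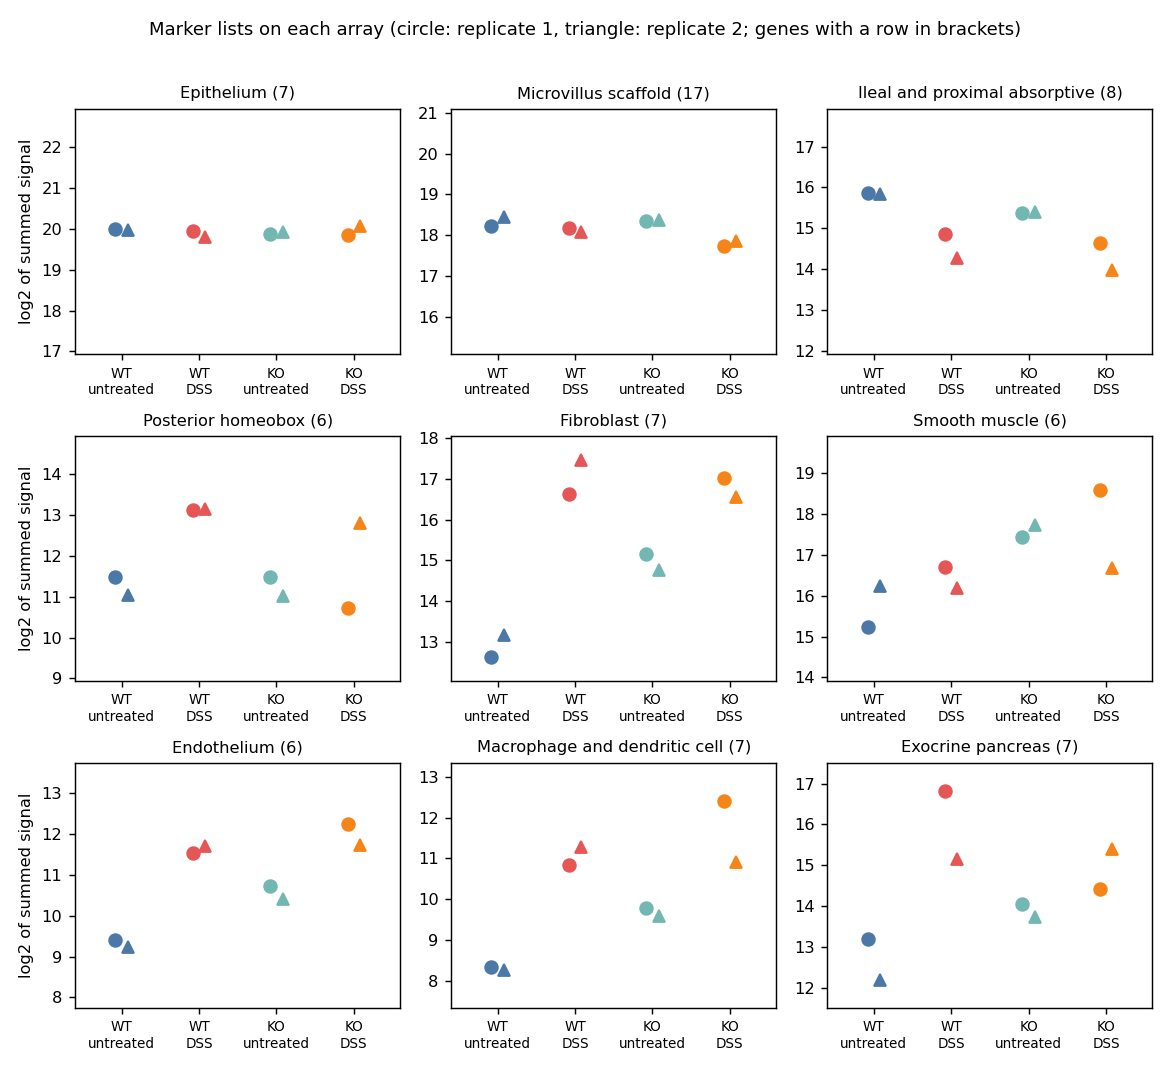
Summed signal of each marker list on each array (log2, vertical axis, each panel spanning the same number of units), with circles for replicate 1 and triangles for replicate 2 and the number of genes with a feature in brackets. Epithelial markers stayed between 19.81 and 20.07, whereas fibroblast, endothelial and macrophage markers were higher on the DSS arrays, and exocrine pancreas markers reached 16.82 on WT DSS replicate 1. The pancreas sum includes Cela1, bright on every array (12.13 to 15.83). It was 14.41 on knockout DSS replicate 1, where Amy2a5 was raised, and 15.39 on its partner.

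The remaining cell type lists also varied. Macrophage and dendritic cell markers summed to 8.27 to 8.35 in untreated WT, 10.85 to 11.27 in WT with DSS, 9.60 to 9.78 in the untreated knockout and 10.90 to 12.41 in the knockout with DSS, with Adgre1 and Itgax below background on all arrays. B and plasma cell markers, which rested on Jchain since Cd79a and Ms4a1 were below background, were 11.78 to 12.78 and 12.11 to 13.08 in untreated WT and knockout cells and 14.61 to 15.42 and 15.16 to 15.61 with DSS. T cell markers lay between 7.88 and 9.19, with Cd3d, Cd3g and Cd8a below background on every array. Neutrophil markers lay between 7.67 and 7.92, where 4 of 5, S100a8, S100a9, Mpo and Csf3r, were below background on every array. Pericyte markers were 10.40 to 11.08 in untreated WT and 12.36 to 13.26 in the other groups. This sum rested mostly on Rgs5, and Cspg4 and Notch3 were below background on every array. Of the 7 colonocyte markers, 0 passed with DSS in the knockout by limma (3 at an unadjusted p under 0.05, where the share of all genes was not counted). With DSS in WT, 1 rose and 2 fell. Among these were Slc9a3, the brush border sodium-proton exchanger (-2.07 ± 0.43), Krt20 (-1.10 ± 0.26) and the water channel Aqp8 (1.34 ± 0.33). Of the 7 epithelial markers, 0 passed by limma in any comparison, and 0 did at an unadjusted p under 0.05. Anpep, Dpp4 and Mme are known on stromal cells and leukocytes as well, and the part of these cells in their values was not tested.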

How the data were processed

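RNA from colon epithelial cells was measured on 8 Affymetrix arrays. The deposited values are log2 signals made with Affymetrix Expression Console, per the submitters' processing notes; the normalization step was not given in the sources used here. They were used as deposited. Of 28846 rows, 6640 controls were left out, 19572 had 1 gene symbol (19505 genes; highest-mean row kept) and 2634 had none. The lowest 33.3% of genes by mean (below 5.15) were left out and 13003 tested; all 9 members passed this filter.

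limma 3.58.1 (R 4.3.3) fitted the 4 group means to all 8 arrays, with 4 residual and 7.27 prior degrees of freedom. P-values are two-sided and were adjusted by Benjamini-Hochberg over the 13003 genes, with 0.05 as the threshold; the script was tested on simulated data. An exact permutation test of 2 arrays against 2 cannot go below p = 0.333, so none was run. Precision is limited by the number of arrays; their medians were 5.93 to 6.09 and replicates correlated at 0.981 to 0.992 across genes. Where every array of 1 group was below background, the fold is a bound: the bright group's mean against the mean background of the other's arrays. The members and lists were chosen with earlier results of these data known. By rule the text names the members, Sgms2, up to 4 called genes of smallest p per list and comparison, and the 3 genes nearest to each member called in a pairwise comparison, leaving out predicted genes. Some listed genes were not analysed here. Alternatives covered the filter, normalization, variance model, arrays entering the fit, a replicate block, the threshold, and each array left out.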

Additional observations from a re-analysis of the deposited data

Results flagged for a closer look

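The DSS changes of WT and knockout cells differed for Mme by -4.62 on the log2 scale (limma interaction term, adjusted p = 0.0324). DSS minus untreated was 1.43 in WT, not called (adjusted p = 0.144), and -3.19 in the knockout. Both DSS arrays lay above both untreated ones in WT and below them in the knockout. The untreated WT values were below background, and the call of the difference was lost in 8 of 18 alternatives. For Xpnpep2 the changes differed by -2.21. Both DSS arrays lay above both untreated ones in WT and below them in the knockout. However, the knockout values were below background in both treatments, and the limma test of the difference missed the threshold (adjusted p = 0.0564). Groups of 2 arrays are too small for a check of single outlying arrays.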

How the results depend on the processing

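Of 18 called results on single genes, 6 held under all alternatives in which the gene was tested, and none of the 18 changed sign: Xpnpep2 with DSS in WT and between genotypes with DSS, Ace with DSS in WT, and Naaladl1, Ace and Sis with DSS averaged over genotypes. The cause of each change below was not tested. The number of members called fell from 4 to 0 for DSS in the knockout with only the arrays compared, and from 1 to 0 for genotype with DSS with a stricter filter on low means, where Xpnpep2 was not tested. For the difference between the DSS changes (1) it was 0 with quantile normalization, array weights or without WT DSS replicate 1 and KO DSS replicate 1, and 2 with trend and robust moderation or at adjusted p under 0.1; for genotype averaged over treatments (2) it was 1 with the stricter filter, quantile normalization or array weights. With each array left out in turn it was 2 to 4 for DSS in WT, 1 to 4 for DSS in the knockout, 0 to 2 for genotype without DSS, 1 throughout with DSS, 0 to 2 for the difference, 3 to 6 for DSS averaged and 0 to 3 for genotype averaged.

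Results not called turned sign as follows. With quantile normalization DSS minus untreated in WT was 0.02 for Dpp4 and 0 for Enpep; with array medians set equal it was -0.05 for Enpep, and Ace between genotypes with DSS was 0. Without WT DSS replicate 1 and KO DSS replicate 1, an alternative chosen after seeing the data, Dpp4 was 0.37 for DSS in WT and 0.15 averaged (-0.53 to 0.15 over all settings that left out arrays), knockout minus WT with DSS was 0.28 for Naaladl1 and 0.19 for Sis, and the Enpep difference between DSS changes was -0.33 (-0.33 to 0.83 over the same settings). With each array left out, ranges that crossed 0 were -0.41 to 0.09 (Xpnpep2, genotype without DSS), -1.08 to 0.28 and -0.22 to 0.46 (Naaladl1, genotype with DSS and averaged), -0.29 to 0.04 (Anpep, difference of DSS changes), -0.42 to 0.37 (Dpp4, DSS in WT), -0.06 to 0.15 (Ace, genotype with DSS), -0.38 to 0.43 (Enpep, DSS in WT), and for Sis -0.16 to 0.85, -0.31 to 0.26, -0.09 to 0.41 (genotype without, with DSS and averaged) and -0.87 to 0.13 (difference of DSS changes). For Mep1a they were -1.37 to 4.12 (DSS in the knockout), -5.21 to 0.28 (genotype without DSS), -0.67 to 4.81 (difference of DSS changes) and -1.03 to 1.71 (DSS averaged).

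Deviations of samples with the same replicate number correlated between groups at -0.25 to 0.28. Each group of 2 arrays gives only 1 set of deviations, so this cannot decide whether the numbers pair samples. The main fit used no pairing. With a replicate block the counts were 3 for DSS in WT (without Naaladl1), 3 for DSS in the knockout (without Ace), and 1, 1, 1, 5 and 2 in the other comparisons. Signals near background, as for Xpnpep2, Enpep and Mme in untreated WT, limit what can be seen.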
